A study of Mus musculus with 9 samples.

Results

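Pneumospheres on day 7 of culture were set against pneumospheres on day 3. The libraries were chosen by their day label alone, 3 on each day, which is 6 of the 9 libraries of the series. Pneumospheres are free-floating balls of cells that form when dissociated lung cells are kept from attaching to plastic. Both groups were started from lungs of C57/B6 mouse embryos at E11.5 (embryonic age in days), dissociated with trypsin at 0.05%. The suspension was left for 1 h on an attaching surface, which mesenchymal cells bind faster, and the cells that stayed afloat were taken as enriched for epithelium. These were plated at 50000 cells per ml in wells that cells cannot attach to, with basic FGF at 20 ng/ml, EGF at 10 ng/ml, heparin and B27 and ITS supplements, at 5% O2 and 10% CO2. Day 3 and day 7 differ by 4 days of culture and by the split made on day 3, and no genotype, transgene or drug distinguishes them. The labels name neither the number of embryos behind a library nor separate cultures, so the p-values measure the spread between these samples, which may be technical. Each library is a bulk sample, in which fewer cells of a type and less RNA per cell cannot be told apart.

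At this stage the lung is a branching epithelium surrounded by mesenchyme. The epithelial tips carry Sox9, the epithelium as a whole carries Nkx2-1, Foxa1 and Epcam, and the mesenchyme gives rise to fibroblasts, smooth muscle and pericytes. Fibroblasts build the extracellular matrix from collagens, elastic fibres and proteoglycans, and growth factors such as FGF and EGF act on them through ERK, which induces Fos, Egr and the Spry feedback genes.

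The 6 libraries held 21364750 to 30466712 counts each. Levels below are normalised counts (CPM, counts relative to 1000000 in a library) after scaling of library sizes by edgeR's trimmed mean of M values, group values are means ± SD (n = 3), and log2 changes are day 7 against day 3. A gene was called where its Benjamini-Hochberg adjusted p in edgeR's quasi-likelihood test over all tested genes was under 0.05, and only called genes are said to have risen or fallen. Log values of libraries of the same day correlated at 0.9890 to 0.9933 across genes, and those of different days at 0.9377 to 0.9454. Day 3 replicate 2 had 6.79% of its counts in 1 ID that could not be named, against 0.169 to 0.515% in the other 5. Leaving that ID out gave 6244 called genes in place of 6240.

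Day 7 spheres differed from day 3 spheres in a large share of their genes. Of 14940 tested genes, 6240 were called (41.8%), 3399 higher on day 7 (22.8%) and 2841 lower (19.0%). At least 2-fold changes numbered 1341 upward (8.98%) and 790 downward (5.29%), at least 8-fold changes 190 and 132, and at least 32-fold changes 34 and 29. All 3 day 7 libraries lay above all 3 day 3 libraries for 4555 genes (30.5%) and below them for 4415 (29.6%). The median log2 change over all tested genes was 0.0. Among 544 tested long noncoding RNAs, 93 rose and 46 fell. A fit on the 6 libraries alone called 7378 genes, including 98.7% of the 6240, and leaving out 1 of the 6 libraries gave 4778 to 5621 calls. Below, where a gene list is given with calls in 1 direction only, no member was called in the other, and counts of 1 to 3 genes often moved by 1 when a library was left out.

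**Figure D1:**
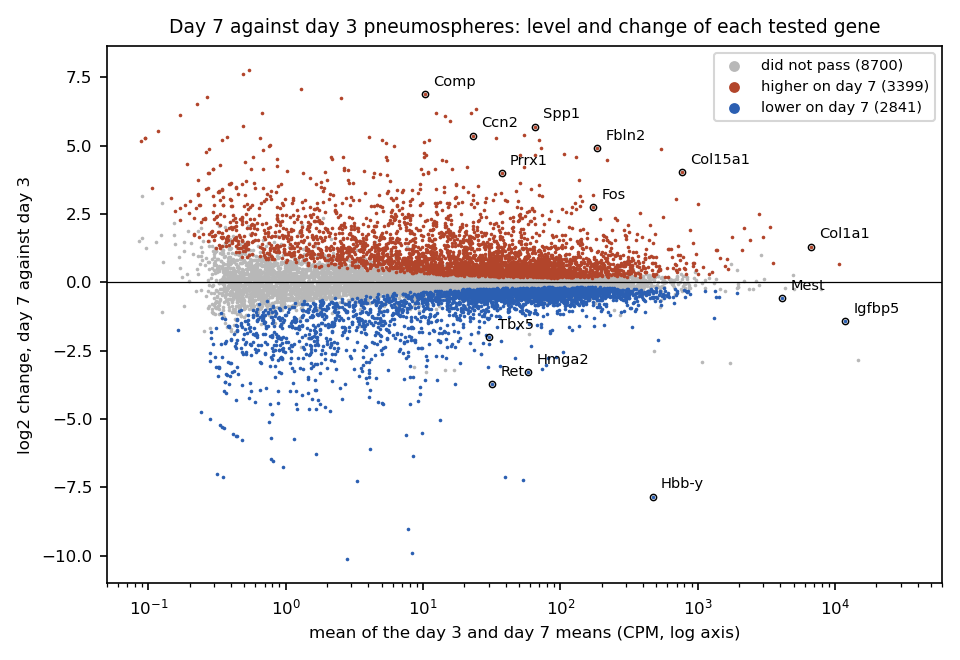
Each point is 1 of 14940 tested genes, with the mean of the day 3 and day 7 means in CPM on a log x axis and the log2 change on the y axis. Red points are the 3399 genes higher on day 7, blue points the 2841 lower, grey points did not pass, and circled genes are named in the text.

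The labelled tissue was checked first. Of 20 genes that mark lung epithelium, 15 had too few counts to be tested, and Nkx2-1, the transcription factor that defines lung epithelium, as well as Foxa1 and Shh, had 0 counts in all 6 libraries, where 3 counts would be 0.0985 to 0.140 CPM before scaling. The 20 genes summed to 3.8, 4.77 and 6.39 CPM on day 3 and 2.89, 3.04 and 1.87 CPM on day 7. Of 5 tested, 1 rose and 2 fell (median log2 change 0.53). The one that rose was Elf3, an epithelial transcription factor, at 0, 0.158 and 0 CPM on day 3 and 0.559, 0.535 and 0.156 CPM on day 7 (log2 change 2.83, SE 0.88, adjusted p = 0.0265). It lost its call without day 3 replicate 1, day 3 replicate 3, day 7 replicate 1 or day 7 replicate 2 (adjusted p 0.0664 to 0.0896), and its log2 change was 6.42 without day 3 replicate 2. Those that fell were Sox2, of airway epithelium and of glial precursors, from 1.89 ± 0.658 to 0.011 ± 0.019 CPM, and Epcam. Epcam, the epithelial adhesion molecule, was at 0.485, 0.473 and 0.838 CPM on day 3 and 0.23, 0.0823 and 0.039 CPM on day 7, lower in each day 7 library (log2 change -2.23, SE 0.54, adjusted p = 0.00842). Its log2 change was -3.20 without day 7 replicate 1. Sox9, which also marks cartilage and neural crest derivatives, was at 46.8, 50.8 and 56.2 CPM on day 3 and 71.2, 59.3 and 60.8 CPM on day 7 (log2 change 0.32, adjusted p = 0.239). The Sox9 libraries of day 7 all lay above those of day 3, and the 6-library fit gave adjusted p = 0.0161, as the fit without day 10 replicate 1 did at 0.0366. Vim, an intermediate filament of mesenchyme, was at 661 ± 43.4 CPM on day 3 and 723 ± 94.02 CPM on day 7, with overlapping groups (adjusted p = 0.408). On both days these libraries thus carried almost no RNA of the defining epithelial genes.

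Markers of several other cell types fell steeply. Of 19 tested markers of neurons and glia, 15 fell (median log2 change -2.70). Ret, the GDNF receptor of enteric and pulmonary neural crest cells, was at 69.3, 53.3 and 54.3 CPM on day 3 and 4.84, 4.11 and 4.41 CPM on day 7 (log2 change -3.72, SE 0.28, adjusted p = 1.3e-05). Day 7 libraries lay far below day 3 libraries, with no overlap. Tubb3, a neuronal tubulin, fell from 25.6 ± 5.74 to 3.75 ± 0.914 CPM. Sox10, which marks glia and neural crest, fell from 3.28 ± 0.402 to 0.162 ± 0.0444 CPM.

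Red cell transcripts nearly vanished. Hbb-y, an embryonic beta globin, was at 934, 1026 and 845 CPM on day 3 and 3.16, 5.35 and 3.75 CPM on day 7 (log2 change -7.85, SE 0.21, adjusted p = 4.41e-08). Hba-x, its alpha partner, fell from 107 ± 7.01 to 0.698 ± 0.249 CPM. Hba-a1, an adult alpha globin, was at 4.94, 6.35 and 5.33 CPM in the day 3 libraries. It was without a count in the day 7 libraries, which against a floor of 3 counts per library is a level at least 49.0-fold lower. In all, 10 of 12 tested erythroid genes fell and 1 rose. All 4 tested mesothelial markers fell, among them Wt1, a transcription factor of the mesothelium, from 64.4 ± 10.96 to 35.8 ± 3.07 CPM, and Lrrn4 from 3.14 ± 0.16 to 0.197 ± 0.115 CPM.

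Of 12 tested endothelial markers 2 rose and 2 fell, each 16.7%, under the 22.8% and 19.0% of all tested genes. The 13 genes of the list, Emcn the most abundant, summed to 200, 221 and 251 CPM on day 3. On day 7 the sums were 270, 369 and 331 CPM. Leukocyte markers were low throughout, 14 genes summing to 17.1, 15.4 and 27.3 CPM on day 3 and 9.86, 14.5 and 18.4 CPM on day 7, and the 2 days overlapped. Emcn, an endothelial sialomucin, rose from 111 ± 8.36 to 185 ± 24.04 CPM, and Erg, an endothelial transcription factor, fell from 7.42 ± 1.72 to 2.02 ± 0.768 CPM.

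Many markers of connective tissue lineages went the other way. Of 7 tendon markers, 5 rose (median 1.91). Kera, which encodes the proteoglycan keratocan, was at 10.6, 11.9 and 9.04 CPM on day 3 and 238, 289 and 224 CPM on day 7 (log2 change 4.57, adjusted p = 4.9e-06). Comp, a cartilage and tendon glycoprotein, rose from 0.168 ± 0.111 to 20.3 ± 11.8 CPM (log2 change 6.90, adjusted p = 0.000501). Of 6 tested osteogenic genes 4 rose, among them Runx2, the transcription factor that starts bone formation, from 4.43 ± 1.01 to 20.6 ± 2.77 CPM, Sp7, which acts after it, from 0.675 ± 0.165 to 5.49 ± 0.599 CPM, and Dmp1, a bone matrix protein, from 0.579 ± 0.093 to 21.3 ± 7.22 CPM. Among 10 adipogenic and lipofibroblast genes 6 rose and 1 fell. Those that rose included Pparg, the regulator of fat cell differentiation, from 4.5 ± 0.58 to 41.4 ± 4.88 CPM, and its target Fabp4 from 1.7 ± 0.591 to 66.3 ± 5.31 CPM. Cartilage genes went both ways (2 of 8 rose, 3 fell). The most abundant, Col9a2, rose from 84.9 ± 5.65 to 200.3 ± 81.6 CPM (log2 change 1.24, adjusted p = 0.0381). Only 1 of the list rose without day 3 replicate 1, 2 or 3, day 7 replicate 1 or day 10 replicate 2. The same held with the replicate number in the fit. In each of these Col9a2 was the gene that lost its call. The link protein Hapln1 rose from 3.6 ± 0.59 to 16.9 ± 3.69 CPM. Col9a1 fell from 2.65 ± 0.995 to 0.234 ± 0.101 CPM and Matn4 from 12.7 ± 4.04 to 3.24 ± 1.11 CPM. All 11 cartilage genes summed to 171, 172 and 176 CPM on day 3 and 398, 240 and 257 CPM on day 7.

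Contractile genes rose as well. Of 14 smooth muscle genes 9 rose and 1 fell. Acta2, smooth muscle actin, was at 151, 139 and 150.03 CPM on day 3 and 230.3, 338 and 316 CPM on day 7 (log2 change 1.01, SE 0.25, adjusted p = 0.0102). Day 7 libraries were all above day 3 libraries. Tagln, an actin-binding protein of smooth muscle, rose from 10.8 ± 1.58 to 128 ± 19.4 CPM, and Mylk, the kinase of the myosin light chain, from 44.2 ± 10.7 to 98.7 ± 29.7 CPM. Synpo2 was the exception and fell from 8.77 ± 0.825 to 2.09 ± 0.277 CPM. Among pericyte genes, Cspg4 (NG2) rose from 35.2 ± 3.22 to 202 ± 27.1 CPM and Pdgfrb from 637 ± 69.6 to 1313 ± 70.2 CPM, whereas Rgs5 fell from 6.54 ± 0.647 to 0.807 ± 0.159 CPM.

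**Figure D2:**
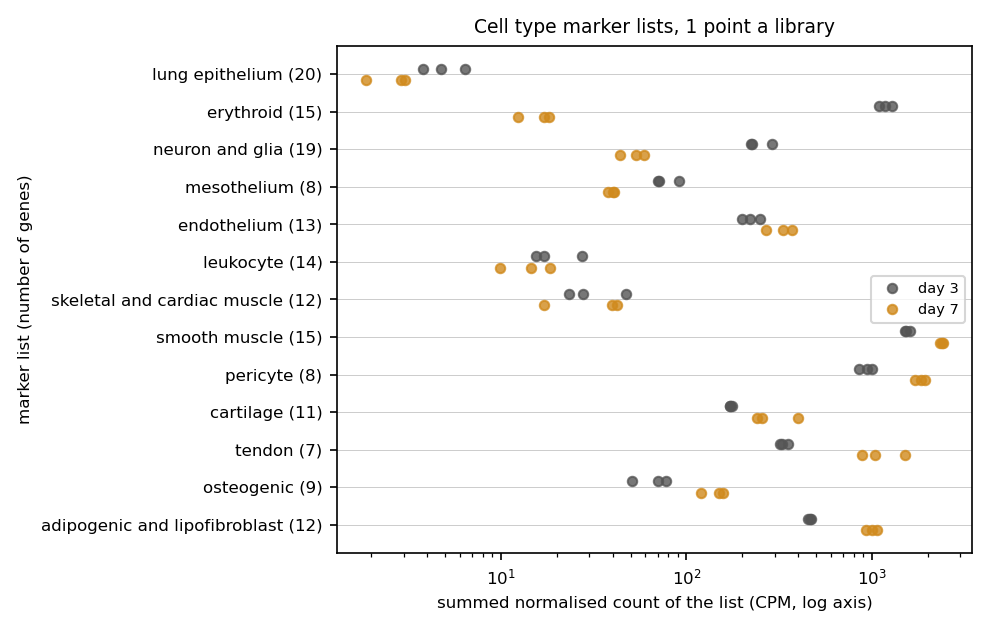
Summed level of each cell type marker list in CPM on a log x axis, with 1 point for each of the 3 day 3 libraries (grey) and 3 day 7 libraries (orange), and the number of genes in brackets. The erythroid, neuronal and mesothelial sums lie lower on day 7. The endothelial, smooth muscle, pericyte, cartilage, tendon, osteogenic and adipogenic sums lie higher, and the epithelial sum is under 7 CPM in every library.

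The genes that gained most counts were collagens. Of the 12 called genes with the largest gain in mean CPM and no overlap of the days, 10 encode collagen chains: Col1a1, Col3a1, Col4a1, Col6a3, Col1a2, Col4a2, Col6a2, Col6a1, Col5a1 and Col15a1. The others were Kctd12, a subunit of GABA-B receptors, and Bgn, the proteoglycan biglycan. Together the 12 took 2.19 to 2.38% of normalised counts on day 3 and 5.53 to 5.93% on day 7. Since they were picked for their gain, this is a description with no test.

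Col1a1, the alpha 1 chain of type I collagen (chr11:94936224-94953042, mm10), was at 4059.9, 3949 and 3566 CPM on day 3 and 9445, 10740 and 8311 CPM on day 7 (log2 change 1.30, SE 0.13, adjusted p = 4.68e-05). Every day 7 library was above every day 3 library. Col6a3, a chain of the beaded filament collagen VI, was at 802, 946 and 759 CPM on day 3 and 4898, 4374 and 5086 CPM on day 7 (log2 change 2.52, SE 0.14, adjusted p = 1.4e-06). Col15a1, a collagen next to basement membranes (chr4:47207655-47313167), had the steepest gain of the 12 and was at 76.2, 81.7 and 109.9 CPM on day 3 and 1668, 1095 and 1584 CPM on day 7 (log2 change 4.02, SE 0.25, adjusted p = 4.74e-06). For both the lowest day 7 library lay several times above the highest day 3 library.

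Igfbp5 lost more counts than any other called gene whose days did not overlap. It encodes a secreted IGF-binding protein (chr1:72858065-72874865) and was at 16834, 18213 and 16943 CPM on day 3 and 6543, 5588 and 7239.9 CPM on day 7 (log2 change -1.42, SE 0.12, adjusted p = 1.82e-05). Mest, an imprinted gene expressed from the paternal copy, fell from 4971 ± 208 to 3304 ± 344 CPM, Grb10, an imprinted inhibitor of growth factor receptors, from 1613 ± 33.4 to 1103 ± 48.03 CPM, and Amot, a scaffold that binds YAP, from 830.4 ± 77.9 to 192 ± 12.9 CPM. Ngfr, the low-affinity neurotrophin receptor, fell from 504 ± 46.9 to 161 ± 23.6 CPM. The 12 such genes with the largest loss, Hbb-y, Igfbp3, Igfbp4, Actb, Scd2, Pkm and Nudt4 also among them, went from 3.35 to 3.56% of normalised counts to 1.58 to 1.70%. Actb, cytoplasmic actin (log2 change -0.41, adjusted p = 0.0376), lost its call without any 1 of 5 of the 6 libraries, day 7 replicate 2 being the exception (adjusted p 0.0772 to 0.112). Igfbp3 (log2 change -1.29, adjusted p = 0.021) lost it without day 3 replicate 2, day 7 replicate 2 or day 7 replicate 3 (0.0538 to 0.0734), and Nudt4 (log2 change -0.83, adjusted p = 0.0148) without day 7 replicate 1 (0.0546).

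**Figure D3:**
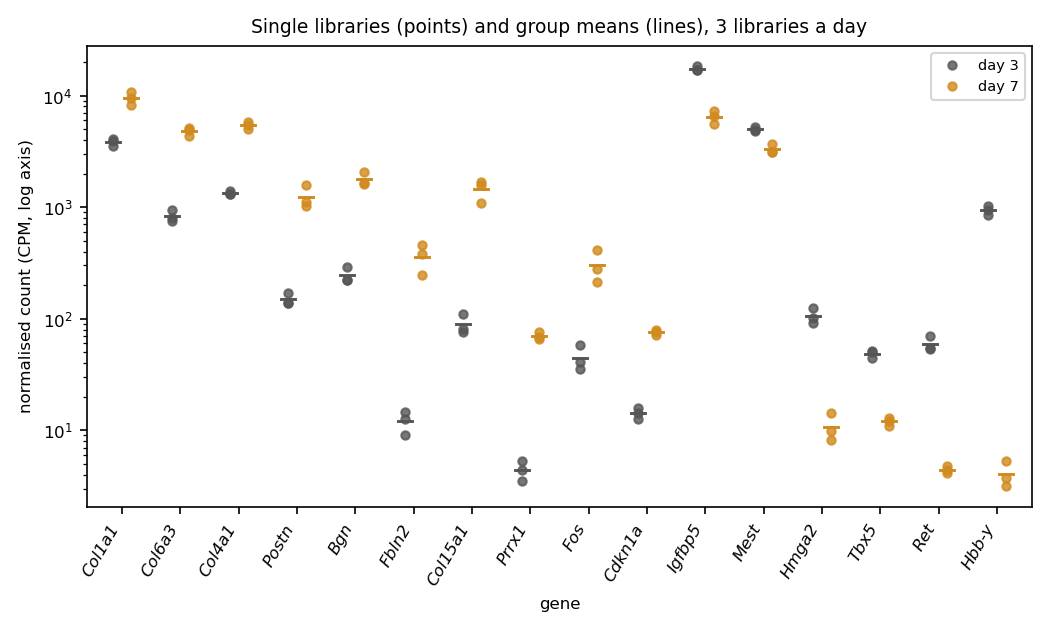
Level of 16 genes in CPM on a log y axis, with 1 point a library (3 for day 3 in grey, 3 for day 7 in orange) and a line at each group mean. The days do not overlap for any of the 16, the first 10 genes being higher and the last 6 lower on day 7.

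The rise extended across the matrix. Of 14 fibrillar collagens and their relatives 11 rose and 1 fell (median 0.77), and of 19 network and beaded collagens 12 rose and 1 fell (median 1.07). Col3a1, the main collagen of soft tissues beside type I, rose from 8244 ± 723 to 13032 ± 1374 CPM, and Col5a3, which encodes the scarce alpha 3 chain of collagen V, from 3.69 ± 0.742 to 137 ± 13.4 CPM. Col4a1 and Col4a2, the main chains of basement membrane collagen IV, rose from 1335 ± 42.2 to 5404 ± 400.3 CPM and from 874 ± 15.4 to 3456 ± 214 CPM. These 2 genes lie head to head and their annotated spans overlap. Col13a1, a transmembrane collagen, fell from 55.96 ± 4.24 to 26.8 ± 4.84 CPM.

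Small leucine-rich proteoglycans, which bind collagen fibrils, gave 9 rises among 11 tested genes (median 1.93). Bgn was at 222, 224 and 291 CPM on day 3 and 1658, 1606 and 2046 CPM on day 7 (log2 change 2.85, SE 0.17, adjusted p = 2.62e-06). Dcn, decorin, rose from 367 ± 9.32 to 1398 ± 127 CPM, Lum, lumican, from 27.5 ± 4.87 to 178 ± 25.97 CPM, and Aspn, asporin, from 27.9 ± 4.25 to 250.1 ± 9.53 CPM. In each of these the day 7 libraries were above the day 3 libraries.

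Of 25 genes of elastic fibres and collagen crosslinking 18 rose and 3 fell. Fbln2, fibulin 2, was at 9.02, 12.6 and 14.5 CPM on day 3 and 455, 246 and 377 CPM on day 7 (log2 change 4.90, SE 0.40, adjusted p = 2.13e-05). Eln, elastin itself, rose from 64.4 ± 2.73 to 323 ± 85.3 CPM, Lox, which crosslinks collagen and elastin, from 18.1 ± 2.84 to 109.6 ± 42.6 CPM, and its relative Loxl1 from 24.1 ± 1.21 to 147 ± 27.3 CPM. Among the latent TGF-beta binding proteins, Ltbp2 rose from 0.799 ± 0.1 to 20.2 ± 4.68 CPM and Ltbp4 from 499 ± 38.2 to 1339 ± 196 CPM while Ltbp1 fell from 20.4 ± 3.8 to 5.58 ± 1.17 CPM. Efemp1, fibulin 3, fell from 28.04 ± 3.91 to 7.96 ± 3.67 CPM.

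Matricellular proteins, which signal from the matrix rather than build it, gave 13 rises among 15. Postn, periostin, was at 139, 170.3 and 137 CPM on day 3 and 1123, 1582 and 1018 CPM on day 7 (log2 change 3.06, SE 0.26, adjusted p = 2.71e-05). Spp1, osteopontin, was at 0.93, 3.35 and 3.09 CPM on day 3 and 159, 93.9 and 130.3 CPM on day 7, the largest rise on the log2 scale among called genes of at least 100 CPM without overlap (log2 change 5.70, adjusted p = 0.000513). Sparc, a collagen-binding glycoprotein, rose from 383 ± 25.95 to 889 ± 62.5 CPM. Mgp, which inhibits calcification, rose from 35.3 ± 15.6 to 1043 ± 21.3 CPM.

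Laminins were less uniform. Lama2, the alpha chain of muscle and mesenchymal laminins, rose from 112 ± 2.06 to 649 ± 78.4 CPM, Lamb2 from 164 ± 11.6 to 554 ± 57.8 CPM, Lamc1 from 705 ± 19.7 to 1137 ± 113 CPM and Lamc3 from 0.598 ± 0.237 to 47.9 ± 15.6 CPM, whereas Agrn, agrin, fell from 494 ± 18.3 to 315 ± 33.5 CPM. In all 6 of 14 rose and 1 fell. Of 17 integrin subunits 6 rose and 1 fell. Those that rose included Itga10, a collagen receptor chain, from 8.2 ± 1.68 to 37.8 ± 4.38 CPM, and Itgav, the alpha V chain, from 264 ± 35.7 to 428 ± 32.9 CPM.

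Matrix proteases and their inhibitors rose side by side (17 of 25 rose and 3 fell). Mmp2, gelatinase A, rose from 1018 ± 22.2 to 1871 ± 293 CPM, Adamts1, a versican-cleaving protease, from 255 ± 29.2 to 689 ± 83.8 CPM, and Plau, urokinase, from 27.9 ± 6.84 to 123 ± 12.8 CPM. Among inhibitors, Timp1 rose from 15.5 ± 1.48 to 74.1 ± 16.01 CPM and Timp4 from 0.504 ± 0.118 to 31.1 ± 6.56 CPM. Mmp15, a membrane-bound protease, fell from 38.6 ± 2.61 to 16.4 ± 2.34 CPM. Timp1 lies within Syn1 and Timp4 within Syn2, and without a stated strand setting reads of such pairs cannot be told apart.

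**Figure D4:**
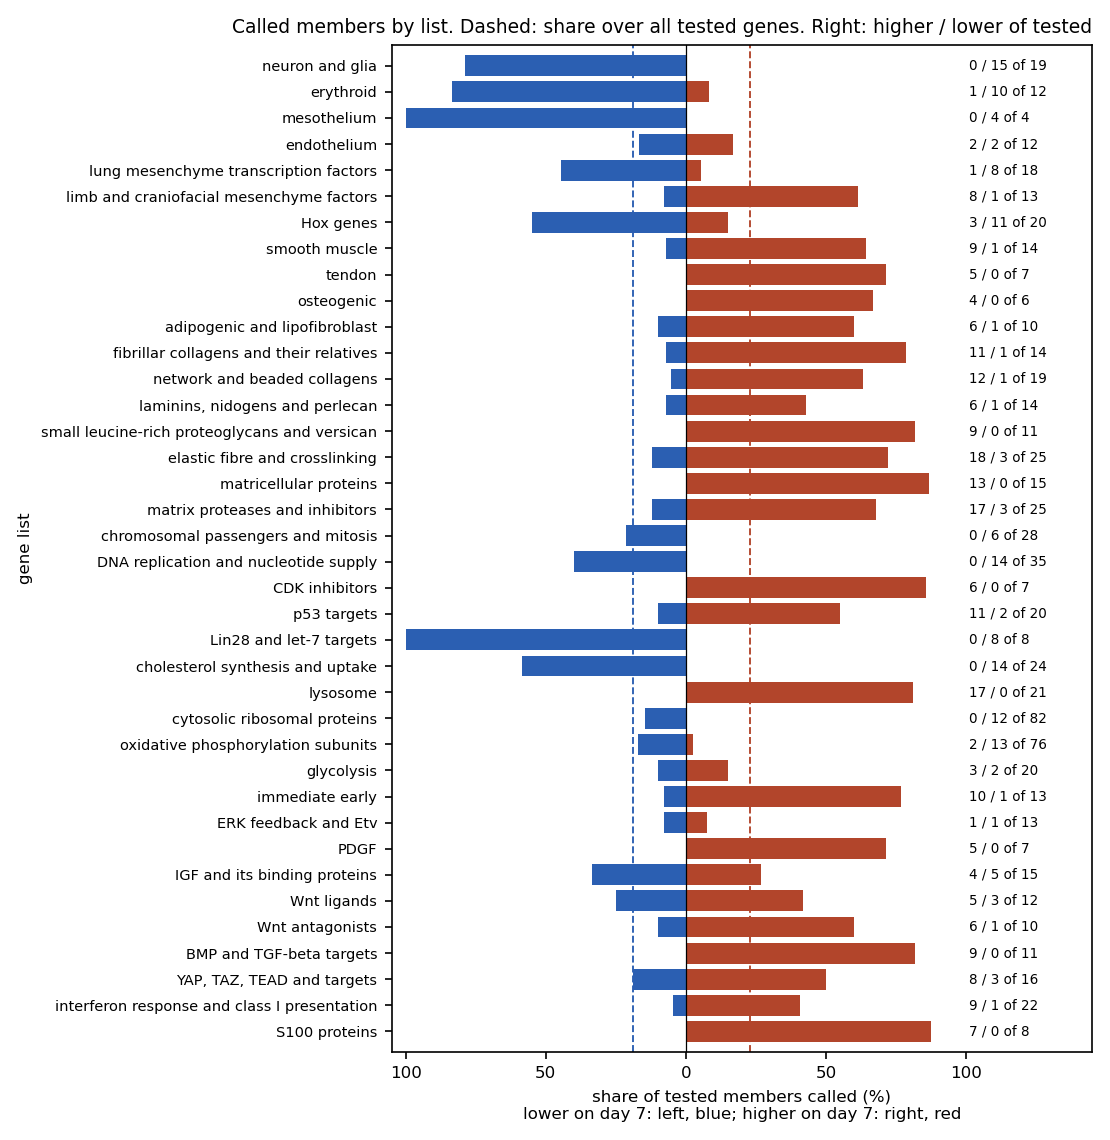
For each gene list, the share of tested members called higher (red, right) and lower (blue, left) on day 7 is drawn in percent, with the counts at the right and the shares over all tested genes (22.8% and 19.0%) as dashed lines. Matrix lists extend to the right, and neuronal, erythroid, Hox and let-7 target lists to the left.

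Among transcription factors that were called, those of a lung mesenchyme list mostly fell, and those of a limb and craniofacial list mostly rose. Of 18 lung mesenchyme factors 8 fell, 1 rose and 9 were not called (median -0.61). The most abundant, Tbx2, was among the 9, at 742 ± 18.9 CPM on day 3 and 863 ± 59.6 CPM on day 7 (adjusted p = 0.141). Its day 7 libraries all lay above those of day 3. Tbx5, which with Tbx4 sets lung and limb mesenchyme, was at 50.1, 51.3 and 44.7 CPM on day 3 and 12.2, 12.96 and 10.97 CPM on day 7 (log2 change -2.01, SE 0.10, adjusted p = 9.8e-07). Tbx4 fell from 12.4 ± 0.843 to 3.96 ± 1.001 CPM, Hoxa5, needed for lung mesenchyme patterning, from 96.7 ± 5.62 to 52.2 ± 6.87 CPM, and Meis2, a Hox cofactor, from 265 ± 10.9 to 128 ± 0.928 CPM. Of 13 limb and craniofacial factors 8 rose and 1 fell (median 0.62). The most abundant of these, Zeb1, was among the 8. It rose from 439 ± 26.3 to 593 ± 17.7 CPM (log2 change 0.43, adjusted p = 0.00114). Prrx1, a homeobox gene of limb and skull mesenchyme (chr1:163245119-163315145), was at 5.3, 4.38 and 3.53 CPM on day 3 and 75.4, 69.05 and 65.6 CPM on day 7 (log2 change 3.99, SE 0.17, adjusted p = 5.4e-07). Prrx2 rose from 21.9 ± 2.09 to 84.4 ± 20.2 CPM, Alx4, a craniofacial homeobox gene, from 127 ± 22.2 to 369.7 ± 76.05 CPM, Msx1, which holds progenitors undifferentiated, from 1.12 ± 0.228 to 11.9 ± 5.4 CPM, and Shox2, a gene of limb growth, from 1.42 ± 0.351 to 8.74 ± 2.78 CPM. The 2 lists together do not cover every mesenchymal factor, and they were drawn up with earlier results of these data known.

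Hox genes fell more often than they rose (11 and 3 of 20, median -0.67). Besides Hoxa5, Hoxb5 fell from 54.9 ± 4.33 to 27.8 ± 5.15 CPM, Hoxb4 from 47.7 ± 3.99 to 30.5 ± 2.46 CPM, Hoxb6 from 36.97 ± 3.49 to 21.3 ± 4.46 CPM, Hoxa4 from 9.59 ± 1.45 to 4.05 ± 0.197 CPM and Hoxd3 from 7.68 ± 1.2 to 0.411 ± 0.0528 CPM. Hoxd8 rose from 0.207 ± 0.044 to 5.05 ± 1.5 CPM. Genes within a Hox cluster overlap or adjoin, and Hoxa5 and Hoxa4 overlap the annotated span of Hoxa3.

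Forkhead factors gave 9 rises and 3 falls among 24, or 5 falls without day 10 replicate 3. Foxc2, a factor of vessel and cartilage mesenchyme, rose from 8.94 ± 1.34 to 36.98 ± 0.282 CPM, Foxl1, of gut and lung mesenchyme, from 2.34 ± 0.271 to 17.4 ± 4.18 CPM, and Foxs1, of perivascular cells, from 0.43 ± 0.145 to 10.3 ± 1.9 CPM. Foxo1, a target of insulin signalling, fell from 88.9 ± 14.2 to 51.4 ± 8.47 CPM. Of 13 tested Sox genes 6 fell, with Sox11, a factor of immature neurons and mesenchyme, from 299 ± 4.6 to 142 ± 11.99 CPM. Among LIM homeobox genes Lhx2 rose from 3.56 ± 0.401 to 31.1 ± 7.93 CPM while Lhx3 fell from 14.6 ± 2.25 to 0.289 ± 0.194 CPM. 

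Genes of cell division had lower levels on day 7 by a modest margin. Of 28 tested genes of mitosis and the chromosomal passenger complex 6 fell (21.4%, near the 19.0% of all tested genes that fell), and the median log2 change of the 28 was -0.61. The median per library against the day 3 mean was -0.82, -0.40 and -0.50 on day 7 replicates 1 to 3. The count rested on the spread taken into the fit: 24 of 28 were called in the 6-library fit and also without day 10 replicate 3, but 1 or 2 without any single library of days 3 and 7. Bub1b, a spindle checkpoint kinase, was at 171, 169 and 174 CPM on day 3 and 84.6, 114 and 97.1 CPM on day 7 (log2 change -0.80, SE 0.20, adjusted p = 0.0112). Aurkb, the kinase of the chromosomal passenger complex, was at 91.1, 86.9 and 92.2 CPM on day 3 and 59.8, 77.8 and 71.3 CPM on day 7 (log2 change -0.37, SE 0.25, adjusted p = 0.268). Its day 7 libraries all lay below those of day 3. The 6-library fit gave adjusted p = 0.00711 for Aurkb, and the fit without day 10 replicate 3 gave 0.00678.

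Of 35 tested genes of DNA replication 14 fell (median -0.45). The count was 25 in the 6-library fit and without day 10 replicate 3, 9 without day 3 replicate 1 and 7 without day 7 replicate 1. Members of the MCM helicase fell together, with Mcm7 from 159 ± 2.65 to 101 ± 6.35 CPM, Mcm2 from 154 ± 4.52 to 109.95 ± 10.4 CPM, Mcm3 from 202 ± 2.41 to 147 ± 10.6 CPM, Mcm4 from 248 ± 2.76 to 175 ± 9.54 CPM and Mcm6 from 283 ± 3.61 to 212 ± 18.2 CPM. Genes that govern entry into the cycle went both ways, and of 14 tested G1 cyclins, kinases, E2F and retinoblastoma family members 4 rose and 4 fell (median -0.17). Cdk4, a kinase of G1, fell from 495 ± 25.5 to 365 ± 17.9 CPM, E2f1, an activator of S phase genes, rose from 57.9 ± 2.83 to 79.4 ± 6.46 CPM, and Rb1, its inhibitor, rose from 10.3 ± 0.276 to 16.01 ± 0.563 CPM.

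Promoter sequence of the division genes is shown because the median of the list was lower in every day 7 library. RefSeq promoters (GRCm38.p6) were found for 23 of the 28 mitosis genes, and 19 of the 23 hold CCAAT, on either strand within 250 bases before the start, against 40.2% of all tested genes with a promoter. TTTGAA, the core of the cell cycle homology region, stands in 8 of the 23, against 12.5%. Cdca8 encodes borealin of the passenger complex (chr4:124936918-124937042, minus strand, CCAAT in capitals on either strand), and Cdc20 encodes the activator of the anaphase-promoting complex (chr4:118437344-118437401, minus strand, TTTGAA in capitals).
Cdca8: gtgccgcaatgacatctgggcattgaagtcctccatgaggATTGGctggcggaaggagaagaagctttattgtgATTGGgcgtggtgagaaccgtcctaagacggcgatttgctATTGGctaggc
Cdc20: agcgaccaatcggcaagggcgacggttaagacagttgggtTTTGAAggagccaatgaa
Cdca8 was at 78.4 ± 3.09 CPM on day 3 and 50.9 ± 7.09 CPM on day 7 (log2 change -0.62, adjusted p = 0.0952), and without day 10 replicate 3 its adjusted p was 0.000461. Cdc20 was at 113 ± 4.86 CPM on day 3 and 67.7 ± 7.95 CPM on day 7 (log2 change -0.74, adjusted p = 0.0372), and without any 1 of the 6 libraries its adjusted p was 0.0546 to 0.105. A match is a description of letters and not evidence of binding, and called genes as a whole held CCAAT at 38.7% (higher) and 40.8% (lower).

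Most inhibitors of the cell cycle rose. Of 7 CDK inhibitor genes 6 rose (median 1.37). The most abundant, Cdkn1c, was not called (adjusted p = 0.108). It was at 400 ± 22.7 CPM on day 3 and 478 ± 54.2 CPM on day 7, with overlapping groups. Cdkn1a (p21) was at 15.98, 12.6 and 14.2 CPM on day 3 and 78.8, 72.1 and 75.5 CPM on day 7 (log2 change 2.41, SE 0.28, adjusted p = 0.000173). Cdkn2b (p15) rose from 1.04 ± 0.319 to 9.91 ± 2.11 CPM, Cdkn2a from 0.51 ± 0.107 to 2.39 ± 0.583 CPM, Cdkn2c (p18) from 8.34 ± 1.15 to 21.5 ± 3.19 CPM and Cdkn1b (p27) from 43.02 ± 3.54 to 69.96 ± 14.9 CPM. Of 20 p53-linked genes 11 rose and 2 fell, with Ccng1, cyclin G1, from 71.1 ± 6.79 to 143 ± 15.9 CPM and Gadd45a, a DNA damage gene, from 7.75 ± 0.0518 to 23.5 ± 3.88 CPM. Trp53 itself fell from 144 ± 1.81 to 111 ± 0.657 CPM, and Plk2 from 189 ± 12.7 to 105 ± 7.65 CPM.

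Genes of the fetal Lin28 and let-7 circuit fell. Lin28 proteins block maturation of the let-7 microRNAs, and let-7 represses Hmga2 and the Igf2bp genes. All 8 tested members fell (median -1.29), a count that was also 8 without each of the 9 libraries in turn. Hmga2, a chromatin protein of fetal tissues (chr10:120361268-120476469), was at 101, 90.96 and 124 CPM on day 3 and 9.9, 8.15 and 14.2 CPM on day 7 (log2 change -3.29, SE 0.46, adjusted p = 0.000524). Lin28b fell from 2.29 ± 0.584 to 0.0966 ± 0.0486 CPM, Igf2bp1 from 143 ± 6.66 to 64.4 ± 1.75 CPM, Igf2bp3 from 136 ± 5.06 to 61.5 ± 3.81 CPM and Trim71, a let-7 target of stem cells, from 13.8 ± 2.7 to 5.12 ± 1.44 CPM. Mycn, a growth-promoting factor of embryonic lung, fell from 24.3 ± 6.38 to 10.4 ± 1.42 CPM.

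Among chromatin genes Dnmt1, the maintenance DNA methyltransferase, fell from 422 ± 14.6 to 289.5 ± 20.9 CPM, Dnmt3b from 10.1 ± 0.264 to 5.09 ± 0.745 CPM and Ezh2, the Polycomb methyltransferase, from 131 ± 1.89 to 78.7 ± 11.6 CPM, while its relative Ezh1 rose from 24.5 ± 1.44 to 42.5 ± 4.87 CPM. Suz12 fell by 0.31 on the log2 scale. Of 17 tested imprinted genes 3 rose and 2 fell (17.6% and 11.8%, under the 22.8% and 19.0% of all tested genes).

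**Figure D5:**
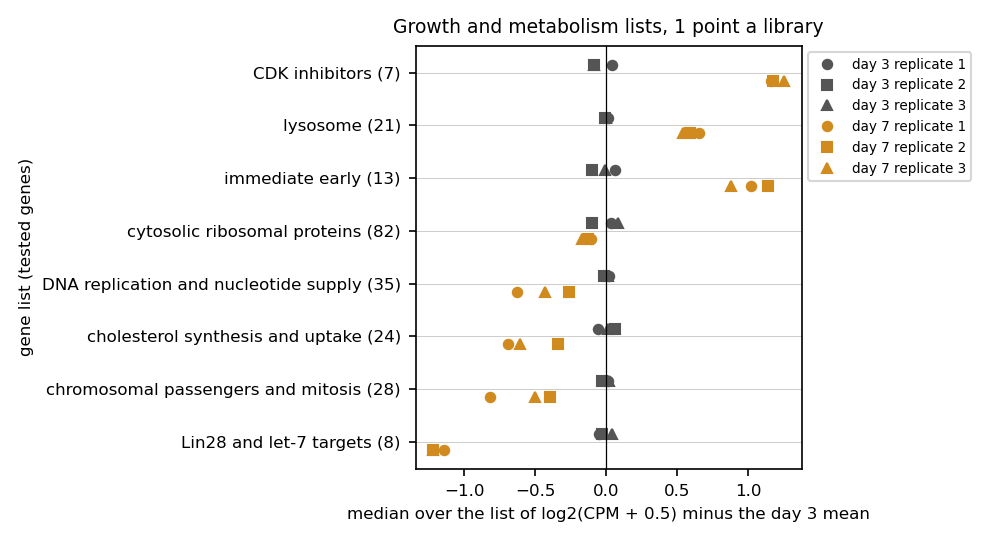
For 8 lists, the median over tested members of log2(CPM + 0.5) minus the day 3 mean is on the x axis, with 1 point a library, day 3 in grey and day 7 in orange and a shape for each replicate. Day 7 libraries lie right of all day 3 libraries for CDK inhibitors, lysosome and immediate early genes and left of them for the replication, cholesterol, mitosis and let-7 target lists. For ribosomal proteins they lie left by a narrow margin (-0.17 to -0.11 on day 7, -0.1 to 0.08 on day 3).

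Many genes of cholesterol synthesis fell. These genes are switched on by SREBP2 when membranes run low on sterol. Of 24 tested 14 fell (median -0.53). The count was 22 in the 6-library fit and 9 without day 3 replicate 2, day 7 replicate 1 or day 7 replicate 3. Mvd, the mevalonate decarboxylase, was at 61.3, 70.4 and 71.9 CPM on day 3 and 32.5, 45.02 and 32.7 CPM on day 7 (log2 change -0.89, SE 0.22, adjusted p = 0.0106). Msmo1, a sterol oxidase that removes methyl groups, fell from 152 ± 5.82 to 84.1 ± 12.9 CPM and Srebf2, which encodes SREBP2, from 503 ± 20.9 to 376 ± 23.5 CPM.

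CCAAT stands in the promoters of 16 of the 16 list members that the RefSeq table holds, against 40.2% of all tested genes. TCACCCC, a sterol response core, was found in 2 of the 16. The sequences of Mvd (chr8:122443423-122443522, minus strand) and of Lss, lanosterol synthase (chr10:76531503-76531587, plus strand), show the CCAAT letters in capitals, on either strand.
Mvd: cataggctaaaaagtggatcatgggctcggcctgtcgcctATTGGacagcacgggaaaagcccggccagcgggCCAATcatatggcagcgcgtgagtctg
Lss: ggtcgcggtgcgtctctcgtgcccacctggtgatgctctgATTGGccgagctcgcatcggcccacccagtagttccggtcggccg
Hmgcs1, which makes HMG-CoA, holds 3 copies in its 250 bases (chr13:119690101-119690350, plus strand).
Hmgcs1: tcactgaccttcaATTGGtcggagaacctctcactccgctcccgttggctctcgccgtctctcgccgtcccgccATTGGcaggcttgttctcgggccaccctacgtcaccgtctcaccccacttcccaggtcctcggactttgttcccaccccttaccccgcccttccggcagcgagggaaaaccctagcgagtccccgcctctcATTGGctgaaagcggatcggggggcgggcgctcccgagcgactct
Hmgcs1 was at 603 ± 48.9 CPM on day 3 and 376 ± 65.3 CPM on day 7 (log2 change -0.68, adjusted p = 0.0159) and Lss at 94.99 ± 8.02 CPM on day 3 and 62.2 ± 6.72 CPM on day 7 (log2 change -0.61, adjusted p = 0.0183). Without day 3 replicate 2, day 7 replicate 1 or day 7 replicate 3 the adjusted p was 0.0514 to 0.0583 for Hmgcs1 and 0.0579 to 0.0599 for Lss.

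Fatty acid synthesis was split. Acly, which makes cytosolic acetyl-CoA, fell from 468 ± 28.8 to 266 ± 29.0 CPM, Fasn, fatty acid synthase, from 604 ± 25.5 to 408 ± 25.01 CPM, Scd2, a desaturase, from 1695 ± 80.03 to 1174 ± 178 CPM, and Elovl6, an elongase, from 162 ± 11.1 to 88.1 ± 12.6 CPM. In all 6 of 14 fell and 3 rose, or 5 rose without day 10 replicate 3. Outside that list, Nr1h3, the sterol sensor LXR alpha, rose from 2.33 ± 0.547 to 13.1 ± 2.21 CPM. Lpl, lipoprotein lipase, rose from 113 ± 13.4 to 327 ± 89.3 CPM and the fatty acid transporter Cd36 from 189 ± 5.11 to 378 ± 23.3 CPM. Lpl and Cd36 belong to the adipogenic and lipofibroblast genes counted above.

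Lysosomal genes rose in 17 of 21 cases (median 0.54). Ctsd, cathepsin D, was at 197, 187 and 175 CPM on day 3 and 607, 748 and 425 CPM on day 7 (log2 change 1.67, SE 0.23, adjusted p = 0.000383). Psap, the saposin precursor, rose from 485 ± 6.11 to 961 ± 69.4 CPM, Ctsk, the collagen-degrading cathepsin K, from 6.4 ± 1.11 to 20.5 ± 0.504 CPM, and Tfeb, a transcription factor of lysosomal genes, from 6.04 ± 0.549 to 18.04 ± 2.003 CPM. All 3 day 7 libraries were above all 3 day 3 libraries in these genes.

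Housekeeping machinery moved little. Of 82 cytosolic ribosomal protein genes 12 fell (median -0.14), a share below the 19.0% of all genes. The count was 3 without day 3 replicate 1 and 4 without day 3 replicate 3 or day 7 replicate 3. Of 76 subunits of oxidative phosphorylation 13 fell (17.1%, under the 19.0% of all tested genes) and 2 rose (median -0.11). Without day 3 replicate 1 or 3, 4 of them fell, and without day 7 replicate 1 or 3, 5 fell. Cox5a, a subunit of cytochrome oxidase, fell from 63.7 ± 5.82 to 44.4 ± 4.56 CPM and Atp5a1, of ATP synthase, from 802 ± 41.5 to 612 ± 37.9 CPM. Of 20 glycolysis genes 3 rose and 2 fell, Pkm, a pyruvate kinase, from 837 ± 85.4 to 499 ± 138 CPM. A hypoxia list gave 3 rises and 1 fall among 15 (median 0.15). These shares, 20.0% and 6.7%, are under the 22.8% and 19.0% of all tested genes. Within it Epas1, the hypoxia factor HIF-2 alpha, rose from 21.001 ± 1.41 to 106 ± 18.2 CPM and Adm, adrenomedullin, from 2.99 ± 0.456 to 13.2 ± 2.61 CPM.

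The culture supplied FGF and EGF, whose receptors signal through ERK. Ligand Fgf1 rose from 12.8 ± 2.17 to 51.3 ± 9.44 CPM and Fgf2 from 0.424 ± 0.0904 to 2.78 ± 0.505 CPM. Of the receptors, Fgfr1 rose from 329 ± 13.2 to 470.5 ± 45.4 CPM, Fgfr3 from 2.38 ± 0.596 to 12.4 ± 3.48 CPM, and Fgfr2 fell from 20.2 ± 0.827 to 6.34 ± 1.14 CPM. Among 13 feedback and Etv genes 1 rose and 1 fell, both under the shares of all genes, and the 6-library fit gave 5 and 3. Spry1, a feedback inhibitor, rose from 284 ± 9.87 to 461 ± 66.3 CPM. Errfi1, which inhibits the EGF receptor, rose from 171 ± 3.34 to 345 ± 40.9 CPM, and Erbb2 from 52.7 ± 1.48 to 70.5 ± 1.65 CPM.

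Immediate early genes rose. These genes answer growth factors, stretch and stress within minutes and need no new protein. Of 13 tested 10 rose and 1 fell (median 1.01). Fos was at 41.1, 35.2 and 58.2 CPM on day 3 and 411, 212 and 281 CPM on day 7 (log2 change 2.75, SE 0.72, adjusted p = 0.0148). Without the filter on low counts its adjusted p was 0.0531. Junb rose from 21.5 ± 2.4 to 94.6 ± 16.7 CPM, Egr3 from 20.4 ± 3.03 to 67.3 ± 4.65 CPM and Fosl2 from 31.7 ± 0.133 to 64.1 ± 6.91 CPM. Myc, usually counted with them, fell from 59.6 ± 2.29 to 24.5 ± 2.92 CPM. Egr2, a zinc finger factor, was at 63.1, 67.4 and 46.1 CPM on day 3 and 219.9, 277 and 164 CPM on day 7 (log2 change 1.90, SE 0.30, adjusted p = 0.00091). Its promoter (chr10:67537454-67537543, plus strand) is shown for the CArG box (in capitals), the site type of serum response factor, which was found in 2 of the 9 list members with a promoter and in 1.43% of all tested genes.
Egr2: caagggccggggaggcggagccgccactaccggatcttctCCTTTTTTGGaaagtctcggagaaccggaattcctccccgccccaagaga

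PDGF genes rose in 5 of 7 cases. The receptor Pdgfrb was at 573, 629 and 711 CPM on day 3 and 1307, 1246 and 1386 CPM on day 7 (log2 change 1.04, SE 0.10, adjusted p = 4.21e-05). Ligands Pdgfa and Pdgfb rose from 1.26 ± 0.225 to 6.48 ± 1.65 CPM and from 57.1 ± 5.73 to 124 ± 15.3 CPM.

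The IGF system changed in both directions, with 4 rises and 5 falls among 15. IGF-binding proteins hold IGF in the medium, and Pappa cleaves some of them. Besides Igfbp5, Igfbp2 fell from 162 ± 18.9 to 24.2 ± 4.55 CPM and Igfbp4 from 951 ± 43.2 to 655 ± 28.5 CPM. Igfbp7, a binding protein of low IGF affinity, was at 20.9, 17.9 and 17.2 CPM on day 3 and 510.1, 297 and 441 CPM on day 7 (log2 change 4.48, SE 0.28, adjusted p = 4.52e-06). Pappa rose from 0.801 ± 0.366 to 10.6 ± 3.72 CPM, and Stc1, stanniocalcin, which inhibits it, fell from 132 ± 9.76 to 14.6 ± 4.44 CPM. Gpc3, a glypican that binds growth factors, fell from 179 ± 20.3 to 30.5 ± 6.66 CPM.

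Wnt ligands gave 5 rises and 3 falls among 12. Wnt9a rose from 2.76 ± 0.559 to 10.8 ± 1.74 CPM and Rspo3, which amplifies Wnt signals, from 1.36 ± 0.272 to 5.38 ± 1.86 CPM. Wnt11 fell from 31.8 ± 5.75 to 11.97 ± 2.68 CPM and Rspo2, expressed in lung mesenchyme, from 2.34 ± 0.73 to 0.474 ± 0.174 CPM. Fzd5 rose from 6.68 ± 0.977 to 24.9 ± 3.38 CPM and Fzd8 fell from 217 ± 26.004 to 91.7 ± 5.28 CPM. Antagonists gave 6 rises and 1 fall among 10: Dkk1 rose from 0.188 ± 0.125 to 7.9 ± 1.95 CPM, Dkk3 from 8.53 ± 0.626 to 86.1 ± 12.3 CPM and Frzb from 2.21 ± 0.456 to 7.83 ± 0.738 CPM, and Sfrp2 fell from 53.2 ± 2.62 to 6.19 ± 1.44 CPM.

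TGF-beta and BMP targets rose in 9 of 11 cases. Smad7, an inhibitor that TGF-beta induces, rose from 13.3 ± 1.66 to 26.1 ± 4.72 CPM, Smad6, which BMP induces, from 13.3 ± 0.132 to 31.97 ± 6.14 CPM, and Tgfbi from 721 ± 26.4 to 1166 ± 245 CPM. Ligand Tgfb1 rose from 31.4 ± 2.87 to 75.8 ± 6.09 CPM and Inhba, an activin chain, from 4.6 ± 1.21 to 12.9 ± 2.62 CPM, while Bmp7 fell from 13.4 ± 2.07 to 2.24 ± 0.591 CPM. Of the 15 ligands 2 fell and 9 rose, but 4 rose without day 3 replicate 3 and 5 without day 3 replicate 1 or day 7 replicate 1. Receptors Eng, endoglin, and Acvrl1, ALK1, rose from 142 ± 16.9 to 457 ± 28.5 CPM and from 8.62 ± 0.661 to 70.2 ± 14.9 CPM. Fst, follistatin, which binds activin, was at 0.485, 0.513 and 0.22 CPM on day 3 and 26.7, 42.7 and 15.96 CPM on day 7 (log2 change 6.09, SE 0.47, adjusted p = 1.53e-05).

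Of 16 genes that encode YAP, TAZ, the TEAD factors or their targets, 8 rose and 3 fell. YAP and TAZ enter the nucleus when cells are stretched or sparse and act with TEAD factors. Wwtr1, which encodes TAZ, rose from 156 ± 4.1 to 321 ± 37.4 CPM and Tead2 fell from 326 ± 21.1 to 217 ± 7.52 CPM. Ccn2, a secreted target, was at 0.93, 1.03 and 1.32 CPM on day 3 and 46.3, 38.02 and 50.7 CPM on day 7 (log2 change 5.36, SE 0.36, adjusted p = 7.08e-06). Ccn1 rose from 21.1 ± 2.8 to 100.2 ± 11.7 CPM, Axl, a receptor kinase, from 229.6 ± 7.86 to 397 ± 16.2 CPM, and Amotl2, a feedback inhibitor, from 49.6 ± 5.13 to 88.6 ± 13.3 CPM. Ajuba, another target, fell from 41.1 ± 2.53 to 27.8 ± 3.05 CPM. GGAATG, the TEAD core, was found on either strand in 9 of the 13 members with a promoter and in 6 of 11 smooth muscle genes, against 12.9% of all tested genes and 15.1% of those that rose. Ajuba, which fell, also holds it. The list was drawn up from TEAD factors and their targets, so this share is a description of letters and no result about the change by day 7. The core is in capitals, on either strand, in 3 genes that rose: Ccn1 (chr3:145650043-145650128, minus strand), Amotl2 (chr9:102717699-102717784, plus strand) and Acta2 (chr19:34255474-34255559, minus strand).
Ccn1: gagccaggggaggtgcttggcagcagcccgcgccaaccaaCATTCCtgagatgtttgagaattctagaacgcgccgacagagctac
Amotl2: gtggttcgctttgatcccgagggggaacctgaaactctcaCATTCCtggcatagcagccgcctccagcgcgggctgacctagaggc
Acta2: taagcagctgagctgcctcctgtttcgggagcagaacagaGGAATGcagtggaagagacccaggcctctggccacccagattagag

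Hedgehog, Notch and retinoic acid genes were mixed. Of 9 Hedgehog genes 3 rose and 2 fell (33.3% and 22.2%, against 22.8% and 19.0% of all tested genes). Gas1, a Hedgehog coreceptor, rose from 272 ± 9.2 to 555 ± 87.7 CPM and Cdon, another, fell from 156 ± 20.7 to 88.9 ± 9.69 CPM. Of 15 Notch genes 4 rose (26.7%, near the 22.8% of all tested genes) and 2 fell. Jag1, a Notch ligand, rose from 4.78 ± 0.313 to 20.1 ± 2.07 CPM, Lfng, which modifies Notch, from 19.3 ± 1.55 to 71.6 ± 4.22 CPM, and Hes1, a Notch target, from 21.3 ± 3.74 to 34.7 ± 5.66 CPM. Dll3, a ligand-like inhibitor, fell from 1.17 ± 0.173 to 0.144 ± 0.0782 CPM. Of 16 retinoic acid genes 6 rose (37.5%) and 3 fell (18.8%, near the 19.0% of all tested genes). Rarg, a retinoic acid receptor, rose from 30.6 ± 1.49 to 80.4 ± 15.5 CPM and Stra6, a retinol transporter, from 8.71 ± 1.44 to 31.6 ± 7.79 CPM. Aldh1a2, the retinoic acid enzyme of embryonic mesenchyme and mesothelium, fell from 8.57 ± 0.96 to 3.34 ± 1.43 CPM and is 1 of the 4 mesothelial markers counted above.

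Guidance molecules changed in both directions. Sema7a was at 0.85, 0.276 and 0.661 CPM on day 3 and 42.6, 39.5 and 49.9 CPM on day 7 (log2 change 6.20, SE 0.70, adjusted p = 0.00019) and Sema3a, a repulsive cue, fell from 81.9 ± 12.6 to 12.03 ± 0.775 CPM. Slit2 fell from 445 ± 21.5 to 274 ± 36.3 CPM and Slit3 rose from 70.3 ± 6.97 to 168 ± 32.4 CPM. The netrin Ntn1 rose from 14.1 ± 1.93 to 71.3 ± 25.7 CPM and its receptor Unc5b from 88.4 ± 5.003 to 425 ± 9.82 CPM. Epha4 fell from 187 ± 11.6 to 55.7 ± 6.57 CPM and Efnb2 from 138 ± 4.74 to 79.4 ± 8.76 CPM, with 8 falls and 2 rises among 20 ephrins and Eph receptors. Cadherins mostly fell, with 8 falls and 2 rises among 14 (median -0.79). These shares are 57.1% and 14.3%, against 19.0% and 22.8% of all tested genes. Cdh2 (N-cadherin) fell from 277 ± 4.16 to 153 ± 22.5 CPM and Cdh11, of mesenchyme, rose from 142 ± 7.22 to 317 ± 34.7 CPM.

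Several genes of innate immunity rose. Of 22 interferon and class I presentation genes 9 rose and 1 fell. B2m, the shared chain of class I molecules, was at 78.03, 73.9 and 76.4 CPM on day 3 and 155, 146 and 164 CPM on day 7 (log2 change 1.03, SE 0.09, adjusted p = 2.24e-05), and Tap2, a peptide transporter, rose from 1.03 ± 0.361 to 7.31 ± 1.57 CPM. Rsad2 fell from 7.92 ± 1.77 to 1.78 ± 0.292 CPM. Complement gave 4 rises among 9, including C1s1 from 14.9 ± 1.64 to 132 ± 29.8 CPM. Cx3cl1, a membrane-bound chemokine, rose from 7.72 ± 0.473 to 47.9 ± 10.3 CPM and Il33 from 6.05 ± 0.356 to 18.2 ± 5.42 CPM. S100 calcium-binding proteins rose in 7 of 8 cases, with S100a6 from 4.55 ± 0.823 to 139 ± 18.98 CPM and S100a4, of fibroblasts, from 0.306 ± 0.14 to 10.5 ± 6.26 CPM.

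Stress genes did not move as a block. Heat shock genes gave 6 rises and 5 falls among 15. Hspd1 and Hspe1, which share a promoter, fell from 192 ± 3.19 to 128 ± 16.4 CPM and from 47.7 ± 2.33 to 34.5 ± 0.172 CPM, and Bag3 rose from 62.5 ± 4.84 to 92.5 ± 7.5 CPM. Of 12 Nrf2 targets 7 rose and 3 fell, Hmox1, heme oxygenase, from 29.3 ± 3.82 to 53.98 ± 5.39 CPM upward and Txnrd1 from 184 ± 10.4 to 112 ± 10.99 CPM downward. A list of ATF4 and unfolded protein response genes gave 7 rises, 1 fall and 15 genes not called among 23 (median 0.21). Ddit3 (CHOP) rose from 11.8 ± 0.084 to 22.3 ± 1.61 CPM and Trib3 from 7.00 ± 0.767 to 15.1 ± 3.18 CPM.

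Few transcripts were switched on from nothing. Called genes with no count in any day 3 library numbered 9, all under 2 CPM on day 7. Fgf3, an FGF of the inner ear and tailbud, was at 1.35, 0.864 and 1.01 CPM on day 7, at least 8.68-fold higher with the floor of 3 counts per library. Those with no count on day 7 were Hba-a1, Sla and Cited4. Besides the pairs given above, the annotated spans of Tagln and Pcsk7, Aspn and Cenpp, Igfbp7 and Polr2b, Mest and Copg2, B2m and Patl2, Runx2 and Supt3, Nr1h3 and Acp2, Eng and Fpgs, Fgf2 and Nudt6, Mcm7 and Ap4m1, Cdk4 and Tspan31, Cdc20 and Elovl1, Sox2 and Sox2ot, Rb1 and Lpar6, E2f1 and Necab3, and Ddit3 and Mars1 overlap, so their counts could share reads.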

How the data were processed

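RNA-seq counts per gene were deposited by the authors as 1 table of raw, whole-number counts (27179 Entrez gene IDs), made with featureCounts on mm10, per the submitters' processing notes. Aligner, annotation, strand setting and treatment of multiply mapped reads were not given in the sources used here. IDs were named from RefSeq GRCm38.p6 (25275) and GENCODE M21 (18), and 1886 were not named.

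Counts of all 9 libraries (21364750 to 30466712 in the 6 compared) were filtered with filterByExpr (14940 genes) and fitted in edgeR 4.0.16 (R 4.3.3) with robust quasi-likelihood, groups day 3, 7 and 10, TMM scaling and no covariate. The SE is the absolute log2 change over the square root of F. The fit was tested on simulated counts of 14761 genes, of which 100 were changed by a log2 of 1 and 100 by 2. It recovered 67% of log2 changes of 1 and 84% of 2, with 6.21% false among the called. In the comparison itself 41.8% of tested genes were called, and the Benjamini-Hochberg cutoff depends on how many genes change. The simulated rates therefore do not carry over to the comparison. Floors (3 counts) cover counting error only.

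Named genes were Sox9, Nkx2-1, Epcam, Aurkb and Vim, the 12 largest gains and losses in CPM, the 10 largest rises and falls on the log2 scale from 100 CPM, and for each of 80 lists up to 4 called members with the largest change from 5 CPM and its highest in CPM. Some genes under this rule are not reported here. Other list members named, and the clock genes, were chosen after their values were seen. Members and lists were chosen with earlier results of these data known. Same-numbered libraries of days 3 and 7 had deviations correlated at 0.11, -0.00331 and 0.217. Day 3 replicates 1 and 3 correlated best with their own number on day 7. Each day 3 library did so on day 10 (0.118, 0.084 and 0.0893). The labels give replicate numbers but state no pairs, and the main fit took none. A fit with the replicate number as a block was an alternative. Alternatives were other scalings, DESeq2 1.42.0, filters, the 6 libraries alone, the replicate block and leaving out each library. Promoters (250 bases before the start, both strands) came from RefSeq GRCm38.p6.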

Additional observations from a re-analysis of the deposited data

How the results depend on the processing

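Across 20 alternatives the number of called genes ran from 4778 to 7406, within 1.5 times of 6240 in each. With DESeq2's size factors it was 6285, with upper-quartile scaling 6378 (3067 higher, 3311 lower), with library size alone 5950 (2946 higher, 3004 lower), by DESeq2's Wald test 6507, and without the filter on low counts 6021 of 20878 tested. Leaving out 1 library of days 3 and 7 gave 4778 to 5621, and leaving out 1 of day 10 gave 6362 to 7150. The replicate block gave 6319 calls (3425 higher, 2894 lower) and held 95.8% of the 6240, and only days 3 and 7 with the block gave 7406. Day 3 replicate 2 correlated best with day 7 replicate 1, not with its own number. Day 3 replicates 1 and 3 correlated best with their own numbers on day 7. Of 249 called genes named in the text, Col9a2 and Zeb1 not counted, 237 were called with the same sign in each of the 20 alternatives. Cited4, Epcam, Fgf3 and Sla were called in 19 and not tested with a minimum of 1 CPM in 3 libraries. Those that lost the call in some were Actb, Cdc20, Elf3, Fos, Hmgcs1, Igfbp3, Lss and Nudt4. Col9a2, outside this count, also lost its call in some, as given above. Without the filter on low counts the adjusted p was 0.0531 for Fos, 0.0891 for Cdc20 and 0.0702 for Igfbp3, and with the replicate block it was 0.0524 for Igfbp3. The median log2 change over all genes stayed within 0.1 of 0 under each scaling. Depth limits what can be said of genes under 1 CPM.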

Other observations

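Genes of the circadian clock were mostly higher on day 7. Of 18 tested clock genes, a set drawn up after some of their values had been seen, 13 were called higher and none lower (median log2 change 1.11), and 13 to 15 were higher in each of the 20 alternatives. Arntl, which encodes the activator BMAL1, was at 12.4, 11.9 and 12.2 CPM on day 3 and 53.98, 56.9 and 50.5 CPM on day 7 (log2 change 2.15, SE 0.09, adjusted p = 5.21e-07). Its partner Npas2 rose from 15.1 ± 0.707 to 60.03 ± 5.96 CPM. The repressors that BMAL1 switches on rose as well, Per1 from 50.2 ± 3.37 to 167 ± 24.1 CPM, Per2 from 11.1 ± 0.877 to 31.4 ± 0.914 CPM and Nr1d1 from 16.7 ± 1.22 to 43.7 ± 11.2 CPM. Cry1 rose from 24.2 ± 1.45 to 34.1 ± 1.86 CPM, while Cry2 was at 27.1 ± 1.52 CPM on day 3 and 29.8 ± 2.6 CPM on day 7 (adjusted p = 0.345). The labels used here give no hour of collection, so time of day and day of culture cannot be told apart.

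Values of some further called genes follow. Abca8a, a transporter, rose from 2.52 ± 0.766 to 107 ± 31.4 CPM, Gja1, the connexin of mesenchymal gap junctions, fell from 206 ± 8.34 to 67.98 ± 9.42 CPM, and Gpr83, an orphan receptor, fell from 140.5 ± 16.7 to 17.4 ± 2.05 CPM. Cilp, a cartilage matrix protein, rose from 4.92 ± 0.0962 to 125 ± 42.95 CPM.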
